A study of Mus musculus with 19 samples.

Results

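Transcripts of 10 genes of the p53 response and of cell cycle arrest were followed in whole mouse kidneys after ureteral obstruction, with and without zalfermin. The genes were taken by symbol from a count table of 55536 genes. They are Trp53, its negative regulator Mdm2, the p53 target genes Ccng1, Phlda3, Bbc3 and Cdkn1a, the further inhibitors of cyclin-dependent kinases Cdkn1b, Cdkn2a and Cdkn2b, and Glb1l2. Of the 10 genes, 9 had enough reads to be tested among 16026 genes, and Cdkn2a did not.

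The libraries came from 8 obstructed kidneys given zalfermin, a long-acting analogue of the hormone FGF21, 7 obstructed kidneys given vehicle, and 4 healthy kidneys. Per the series design, obstruction was unilateral ureteral obstruction (UUO), the tying of 1 ureter, which leads to tubular injury, inflammation and fibrosis. The sample labels differ from the design in places: they call the obstructed kidneys MASH and the healthy ones untreated, where the design has UUO and healthy vehicle, and they give the drug by a code, taken here to be zalfermin. The sources used here do not give dose, duration, age, sex, strain or genotype, nor do they state that each library is a separate animal, so the p-values measure the spread between these samples, which may in part be technical.

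As background, p53 is a transcription factor that is held at low levels by the ubiquitin ligase Mdm2 and accumulates after DNA damage and other stresses. It then raises genes of cell cycle arrest, among them Cdkn1a (p21), and genes of cell death, among them Bbc3 (PUMA), as well as Mdm2 itself, which closes a feedback loop. Inhibitors of the Ink4 family, p16 from Cdkn2a and p15 from Cdkn2b, block the cyclin D kinases and hold the retinoblastoma protein active, and Cdkn2a also encodes p19Arf, which binds Mdm2. In injured kidney tubules, p21 and p16 are commonly used as markers of arrested or senescent cells.

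Cdkn1a is the gene among the 9 tested with the largest fold difference in level between obstructed and healthy kidneys, and its promoter is the textbook p53 target, so the sequences before the start sites were read from RefSeq (GRCm38.p6). Of the 10 genes, 9 were matched, with 13 windows of 250 bases before and 50 after a start site. Both strands were searched for the 10-base p53 element known as a half-site. The pattern was RRRCWWGYYY (R is A or G, W is A or T, Y is C or T), with no mismatch allowed. The 4 sequences shown are those of the members with a match, each giving the 250 bases before the start site, 5′ to 3′ on the strand of the gene, with the matches in capitals.
Cdkn1a, chr17:29090729-29090978, plus strand: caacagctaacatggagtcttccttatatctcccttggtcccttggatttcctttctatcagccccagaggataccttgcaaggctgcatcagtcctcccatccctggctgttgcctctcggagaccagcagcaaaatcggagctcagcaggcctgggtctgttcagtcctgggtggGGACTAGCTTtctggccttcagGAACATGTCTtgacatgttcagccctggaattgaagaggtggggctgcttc
Trp53, chr11:69580109-69580358, plus strand: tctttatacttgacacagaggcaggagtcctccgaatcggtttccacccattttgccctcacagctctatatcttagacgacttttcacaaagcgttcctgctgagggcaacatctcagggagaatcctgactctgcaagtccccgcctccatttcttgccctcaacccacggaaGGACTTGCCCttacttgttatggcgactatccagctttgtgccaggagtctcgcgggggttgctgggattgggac
Mdm2, chr10:117710759-117711008, minus strand: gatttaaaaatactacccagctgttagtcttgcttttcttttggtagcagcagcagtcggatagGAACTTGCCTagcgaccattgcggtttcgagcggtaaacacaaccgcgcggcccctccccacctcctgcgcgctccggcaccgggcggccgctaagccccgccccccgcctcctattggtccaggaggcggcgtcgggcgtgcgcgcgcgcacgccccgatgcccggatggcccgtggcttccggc
Ccng1, chr11:40755287-40755536, minus strand: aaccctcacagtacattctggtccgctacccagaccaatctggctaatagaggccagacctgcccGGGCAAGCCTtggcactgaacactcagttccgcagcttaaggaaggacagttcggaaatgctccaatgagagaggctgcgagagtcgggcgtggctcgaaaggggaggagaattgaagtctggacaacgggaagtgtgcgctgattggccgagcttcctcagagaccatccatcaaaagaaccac
Only the Cdkn1a sequence held a pair of matches, starting 73 and 51 bases before the start site and separated by 12 bases. The 10 bases directly after the second match miss the pattern at 1 base, so they are not in capitals. Matches in Trp53, Mdm2 and Ccng1 were single, starting 75, 186 and 185 bases before the start site. At least 1 match was present in 2745 of 32851 windows of the same length (8.36%) and a pair with a gap of at most 13 bases in 24 (0.0731%). The letters searched for were not found in the windows of Phlda3, Bbc3, Cdkn1b, Cdkn2a and Cdkn2b, nor in that of a second Cdkn1a start, and a match is a description of the sequence and not of binding. Gene counts cannot tell which Cdkn1a start was used.

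Libraries held 12209122 to 14844103 counts, and levels are counts-per-million values (CPM) on library sizes scaled by edgeR's TMM factors, so that 1 read was worth about 0.1 CPM or less. No pair of libraries looked like a single library deposited again. The vehicle library replicate 6 stood apart, detecting 19788 genes where the remaining vehicle libraries detected 21374 to 22216, and with 1.10% of counts from mitochondrial genes against 3.09% to 4.21%. The healthy libraries had 8.77% to 10.2% of such counts. Leaving out vehicle replicate 6 changed no call of a member. Kidney markers were present in every group, but many differed between vehicle obstructed and healthy kidneys. Lower in obstructed kidneys were 10 of 10 proximal tubule markers, against 28.6% of all tested genes. Higher were 6 of 6 injured tubule, 8 of 8 macrophage, 7 of 7 fibroblast and pericyte and 5 of 5 proliferation markers, against 36.2%. Podocyte and endothelial markers were mixed, with 2 higher and 2 lower of 6, and 3 higher and 1 lower of 6. The part of these cell types in the values of the 10 genes was not tested. In bulk tissue fewer cells of a type and less RNA per cell cannot be told apart.

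In obstructed kidneys given vehicle, 6 of the 9 tested genes were higher than in healthy kidneys (Trp53, Mdm2, Phlda3, Bbc3, Cdkn1a and Cdkn2b), 2 were lower (Ccng1 and Glb1l2) and Cdkn1b was not called, by edgeR's quasi-likelihood test at a Benjamini-Hochberg adjusted p of 0.05 over all tested genes. Of all tested genes, 64.8% were called in this comparison, 36.2% higher and 28.6% lower, so calls were common throughout the transcriptome. The balance of these calls depended on the scaling, with 5799 higher and 4588 lower with TMM factors, 5264 and 5150 with RLE factors, and 6185 and 4265 with upper-quartile factors. The median log2 fold change was 0.87 over the 9 genes and 0.09 over all 16026. In 7 of the 9 genes the vehicle and healthy libraries did not overlap, as in 44.2% of all tested genes.

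Trp53 (chr11:69580359-69591873 on GRCm38) encodes p53 itself. Its level was 61.1, 67.0, 60.9, 65.7, 60.0, 77.2 and 71.6 CPM in the vehicle obstructed kidneys, against 30.1, 28.6, 28.1 and 25.2 CPM in the healthy ones. Every obstructed kidney thus lay above every healthy one, and the highest value belonged to vehicle replicate 6. The fold difference was 2.36 (log2 1.24, SE 0.0956, adjusted p = 1.69e-10). This is transcript abundance, whereas p53 is controlled to a large extent at the protein level, which was not measured.

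Mdm2 (chr10:117688875-117710758), the ligase that targets p53 for degradation and is itself a p53 target, differed far less. Vehicle obstructed kidneys had 66.2, 64.7, 72.5, 75.5, 70.7, 69.9 and 67.3 CPM, against 56.2, 57.8, 58.1 and 59.7 CPM in healthy kidneys. The groups did not overlap, because replicates were tight (69.5 ± 3.77 and 58.0 ± 1.43 CPM; SD, n = 7 and 4), and the difference was 1.20-fold (log2 0.26, SE 0.0795, adjusted p = 0.00624). With DESeq2-type size factors (RLE) the log2 difference was 0.18.

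Ccng1 (chr11:40748552-40755311), which encodes cyclin G1, a p53 target that acts with a phosphatase on Mdm2, was the one p53 target among the 10 that was lower. Vehicle obstructed kidneys had 205, 211, 243, 327, 275, 155 and 245 CPM, against 343, 335, 319 and 405 CPM in healthy kidneys. Vehicle replicate 4 reached into the healthy range and replicate 6 was the lowest, so the spread among obstructed kidneys was wide (SD 55.1 CPM). The fold was 0.676 (log2 -0.56, SE 0.134, adjusted p = 0.000823).

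Phlda3 (chr1:135766119-135769136), a p53 target that restrains Akt signalling at the membrane, was at 17.02, 29.7, 23.9, 26.1, 22.2, 34.2 and 24.8 CPM in vehicle obstructed kidneys, against 8.44, 8.60, 6.32 and 5.10 CPM in healthy kidneys. No obstructed kidney came down to the healthy range, and the fold difference was 3.56 (log2 1.83, SE 0.178, adjusted p = 6.32e-09). Bbc3 (chr7:16308393-16318205) encodes PUMA, a BH3-only protein that promotes mitochondrial cell death. Its level was 12.8, 12.5, 18.2, 9.33, 11.8, 16.4 and 12.9 CPM in vehicle obstructed kidneys, against 4.53, 4.79, 4.13 and 5.98 CPM in healthy kidneys. Again the groups were separate, with a fold difference of 2.77 (log2 1.47, SE 0.191, adjusted p = 5.61e-07).

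Cdkn1a (chr17:29090976-29100727) encodes p21, which inhibits cyclin-dependent kinases and mediates p53-dependent arrest. It was at 37.5, 66.5, 54.3, 56.9, 48.6, 61.5 and 60.3 CPM in vehicle obstructed kidneys, against 9.06, 12.6, 9.26 and 10.99 CPM in healthy kidneys. Even the lowest obstructed kidney, vehicle replicate 1, was well above all 4 healthy ones. The fold difference was 5.26 (95% interval 4.09 to 6.76, log2 2.40, SE 0.174, adjusted p = 6.69e-11), and 92.3% of all tested genes had a lower log2 fold change. An unstranded count could mix in reads of a short overlapping transcript on the opposite strand, but that gene held only 8 reads in all libraries.

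Cdkn1b (chr6:134920401-134925513) encodes p27, the closest relative of p21 among the 10, and is known to be regulated largely through protein turnover. Its level was 79.3, 60.3, 81.9, 67.4, 77.9, 45.9 and 72.1 CPM in vehicle obstructed kidneys, against 71.8, 63.1, 60.9 and 61.4 CPM in healthy kidneys. The obstructed values lay on both sides of the healthy ones, with vehicle replicate 6 the lowest of all. The fold was 1.08 with a 95% interval of 0.912 to 1.27 (log2 0.11, adjusted p = 0.427), which leaves room for a modest difference either way. With limma's voom and quality weights, which count deviant libraries less, the same comparison gave a log2 fold change of 0.25 and an adjusted p of 0.00782.

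The Ink4 genes lie side by side on chromosome 4, Cdkn2b at chr4:89306299-89311039 and Cdkn2a at chr4:89274471-89294653. Cdkn2b, which encodes p15, was at 4.69, 9.07, 6.49, 5.03, 6.01, 5.42 and 6.49 CPM in vehicle obstructed kidneys, against 4.18, 3.19, 2.95 and 3.14 CPM in healthy kidneys. The groups came close, at 4.69 and 4.18 CPM, without overlapping, and the fold difference was 1.83 (log2 0.87, SE 0.209, adjusted p = 0.000892).

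Cdkn2a was near the limit of detection. The vehicle obstructed kidneys had 6, 15, 4, 1, 2, 10 and 4 reads, or 42 in all, against 1, 1, 0 and 0 reads in the healthy kidneys, or 2 in all. Reads were therefore found in all 7 obstructed and in 2 of 4 healthy kidneys, and 15 of the 42 reads came from vehicle replicate 2. The ratio of summed reads, scaled for library size, was 11.9, with a 95% interval of 3.09 to 101 that covers counting error only. A two-sided exact permutation test of the mean CPM (0.397 ± 0.324 against 0.0444 ± 0.0513, SD, n = 7 and 4) gave p = 0.0545, or 0.0818 adjusted over the 3 comparisons made of this gene. Gene counts do not separate p16 and p19Arf, which start from different first exons.

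Glb1l2 (chr9:26763044-26806468) encodes a protein related to beta-galactosidase, the enzyme behind the common senescence stain, which itself is encoded by Glb1. Its level was 118, 99.5, 116, 118, 123, 110 and 88.3 CPM in vehicle obstructed kidneys, against 306, 268, 272 and 262 CPM in healthy kidneys. All obstructed kidneys were far below the healthy ones, with a fold of 0.399 (log2 -1.33, SE 0.0979, adjusted p = 8.28e-11). The related Glb1l (95.4 against 191 CPM, log2 -1.0, adjusted p = 2.05e-10) and Glb1 (138 against 238 CPM, log2 -0.79, adjusted p = 7.57e-06) were lower as well. Summed proximal tubule markers were at 6891 to 12554 CPM in the vehicle obstructed kidneys, against 35644 to 50321 CPM in the healthy ones, and their part in the lower Glb1l2 was not tested. The marker gene Kap carries much of this sum, at a mean of 5987 CPM in vehicle obstructed and 27763 CPM in healthy kidneys.

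**Figure D1:**
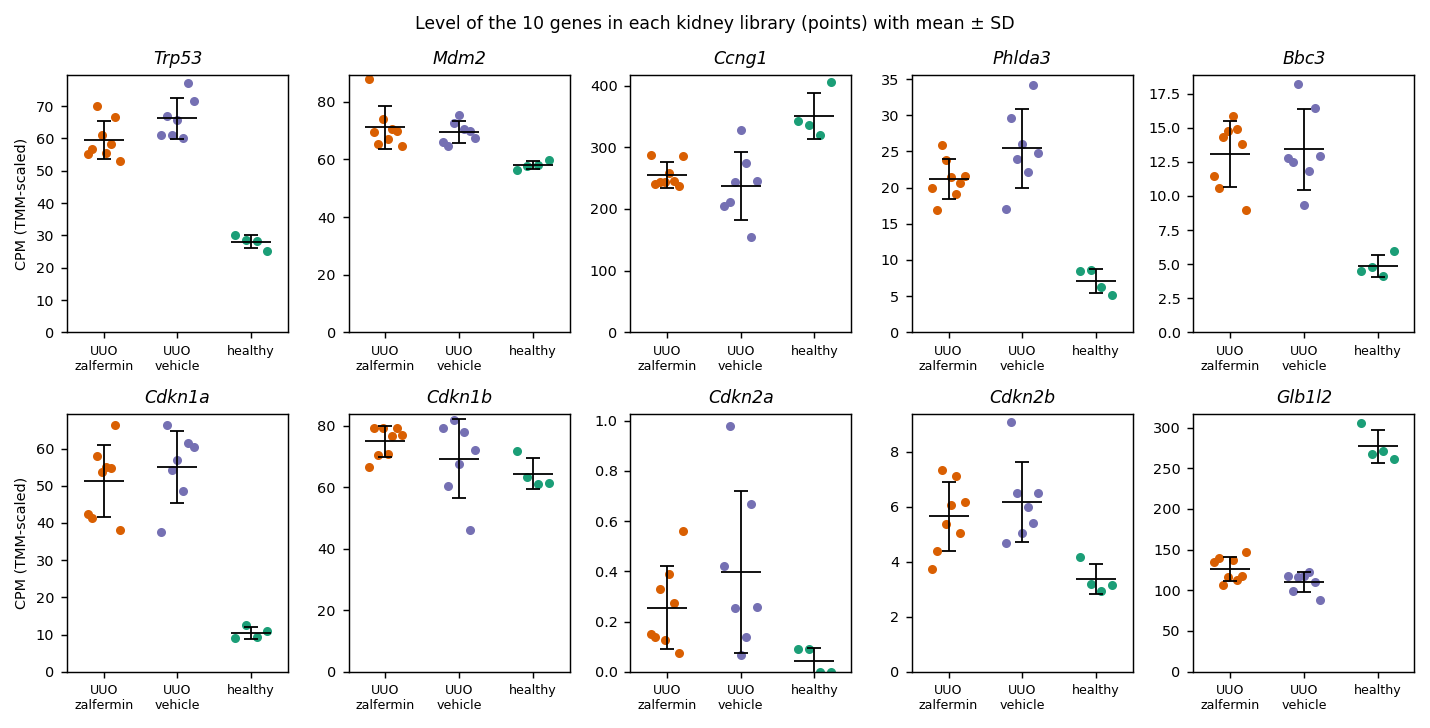
Level of each of the 10 genes in CPM on TMM-scaled library sizes, with 1 point per kidney library and the mean and SD beside the points, for UUO zalfermin (8), UUO vehicle (7) and healthy (4) kidneys. Cdkn1a lies between 37.5 and 66.5 CPM in vehicle obstructed kidneys and at 12.6 CPM or less in healthy ones, while Glb1l2 shows the opposite order.

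Per kilobase of merged exons, levels can be set beside each other across genes. On this scale (CPM divided by the exon length in kilobases, or RPKM, computed here from the counts), Ccng1 was the most abundant of the 10 in both groups, at 67.5 ± 15.7 RPKM in vehicle obstructed and 99.9 ± 10.7 RPKM in healthy kidneys. In vehicle obstructed kidneys it was followed by Trp53 (16.4), Phlda3 (16.3), Cdkn1a (15.5), Cdkn1b (15.2), Mdm2 (13.7) and Glb1l2 (12.2), and each pair of neighbours among these 6 overlapped in the range of their libraries. Bbc3 (6.32), Cdkn2b (4.44) and Cdkn2a (0.339) came below them. The order in healthy kidneys was different, with Glb1l2 (30.6), Cdkn1b (14.1), Mdm2 (11.4), Trp53 (6.92) and Phlda3 (4.56) after Ccng1, and no neighbours among these overlapped. Cdkn1a, at 2.95 RPKM in healthy kidneys, stood next to Cdkn2b (2.42) and Bbc3 (2.29), with overlapping libraries, and only Cdkn2a (0.0379) was far below. The healthy libraries of Cdkn1a, up to 3.54 RPKM, also overlapped those of Phlda3, which went down to 3.27 RPKM. In mean RPKM, p27 transcripts thus exceeded p21 transcripts in healthy kidneys, and the 2 were within their SDs of each other in vehicle obstructed kidneys.

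Zalfermin was compared with vehicle among obstructed kidneys, the question the study's design poses. None of the 9 tested genes was called: edgeR called 0, as did DESeq2 and voom, and 2 had an unadjusted p under 0.05 (Trp53 and Glb1l2). Over all tested genes 1.81% were called, 0.867% higher and 0.942% lower, so calls were rare in general. Of the 9 log2 fold changes 5 were negative and 4 positive, with a median of -0.04 against 0.01 over all genes. In every one of the 9 the zalfermin and vehicle libraries overlapped, as in all but 0.605% of all tested genes.

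Trp53 was at 55.1, 56.7, 70.0, 61.0, 55.4, 58.3, 66.8 and 52.9 CPM with zalfermin (59.5 ± 6.02) against the vehicle values given above (66.2 ± 6.36; SD, n = 8 and 7). Of the zalfermin kidneys, 6 of 8 lay below the vehicle median, and the fold was 0.899 (log2 -0.15, SE 0.0735, unadjusted p = 0.0479, adjusted p = 0.32). Glb1l2 was at 135, 140, 107, 117, 138, 113, 117 and 147 CPM with zalfermin (127 ± 14.8) against 110 ± 12.3 CPM with vehicle (log2 0.20, SE 0.0833, unadjusted p = 0.0261, adjusted p = 0.252). Both differences pointed towards the healthy level, but neither passed the correction over all genes.

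Phlda3 had 19.9, 16.9, 25.9, 23.8, 21.5, 19.1, 20.6 and 21.6 CPM with zalfermin (21.2 ± 2.78) against 25.4 ± 5.46 CPM with vehicle, with 7 of 8 zalfermin kidneys below the vehicle median (log2 -0.26, SE 0.128, adjusted p = 0.329). Cdkn1a had 42.4, 41.2, 58.1, 53.7, 55.0, 54.8, 66.2 and 38.0 CPM with zalfermin (51.2 ± 9.69) against 55.1 ± 9.62 CPM with vehicle. These ranges covered nearly the same span, and the fold of 0.929 had a 95% interval of 0.779 to 1.11 (log2 -0.11, adjusted p = 0.718). A smaller change within that interval could not be resolved with 8 and 7 libraries.

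The remaining members differed by less than the spread between kidneys. Mdm2 averaged 71.1 ± 7.40 CPM with zalfermin and 69.5 ± 3.77 CPM with vehicle, Ccng1 255 ± 20.5 and 237 ± 55.1 CPM, Bbc3 13.1 ± 2.45 and 13.4 ± 2.97 CPM, Cdkn1b 74.8 ± 4.91 and 69.3 ± 12.7 CPM, and Cdkn2b 5.65 ± 1.27 and 6.17 ± 1.45 CPM. Their adjusted p-values by edgeR ran from 0.605 for Cdkn1b to 0.922 for Bbc3. Cdkn2a had 2, 2, 5, 2, 5, 4, 1 and 8 reads with zalfermin, or 29, against 42 with vehicle, a ratio of 0.625 (interval 0.375 to 1.03 for counting error only), and the exact permutation test of mean CPM gave p = 0.307.

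**Figure D2:**
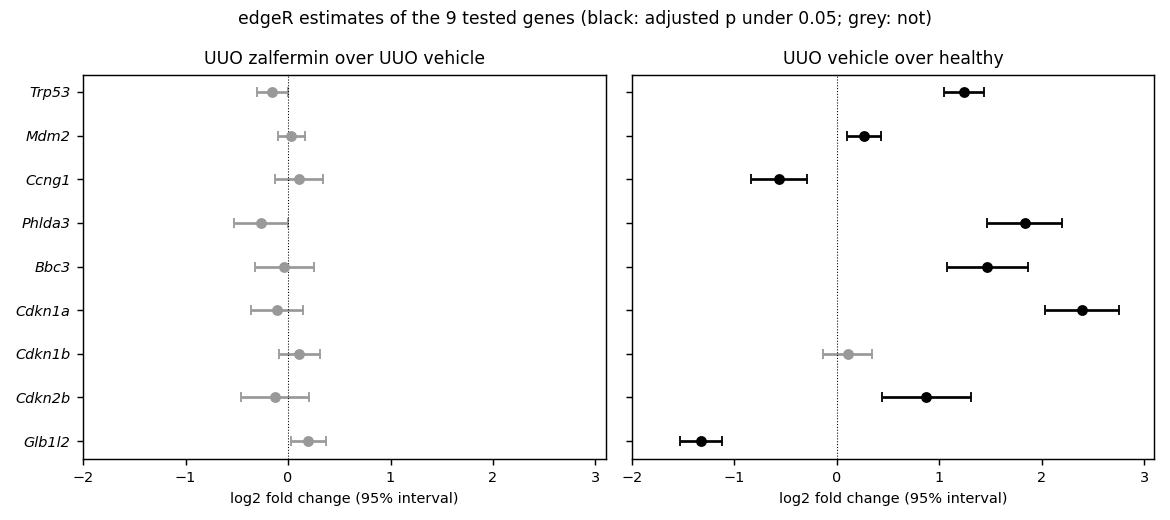
Log2 fold change of the 9 tested genes with 95% intervals from the edgeR fit, for UUO zalfermin over UUO vehicle (left) and UUO vehicle over healthy (right). On the left every interval except those of Trp53 and Glb1l2 spans 0 and no gene is called, and on the right Cdkn1a is highest at 2.40 and Glb1l2 lowest at -1.33.

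Zalfermin-treated obstructed kidneys were also set against the healthy ones. This comparison shares the healthy libraries with the one above, so its values are given side by side with it and are not a second observation. The same genes had calls, 6 higher and 2 lower, where 64.3% of all tested genes were called (37.3% higher and 27% lower). Cdkn1a had a log2 fold change of 2.29 in zalfermin kidneys and 2.40 in vehicle kidneys over healthy ones, Phlda3 1.57 and 1.83, Bbc3 1.43 and 1.47, and Trp53 1.09 and 1.24. For Cdkn2b these were 0.75 and 0.87, for Mdm2 0.29 and 0.26, for Ccng1 -0.46 and -0.56, and for Glb1l2 -1.13 and -1.33. In Cdkn2b the zalfermin and healthy libraries overlapped, with zalfermin replicate 1 at 3.72 CPM and a healthy kidney at 4.18 CPM, while in Ccng1 they did not. Cdkn1b again was not called (log2 0.22, adjusted p = 0.0965). Cdkn2a had 29 reads over 8 zalfermin kidneys against 2 over 4 healthy ones, a ratio of 7.43 (1.88 to 64.3, counting error only), with an exact permutation p of 0.0323, or 0.0818 adjusted over the 3 comparisons.

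Other genes of the pathway gave a mixed picture. Of 34 further p53 target genes, 32 were tested, and 17 were higher, 6 lower and 9 not called in vehicle obstructed over healthy kidneys, with a median log2 fold change of 0.40. This is 53.1% higher and 18.8% lower, against 36.2% and 28.6% of all tested genes with TMM factors. The smallest p-values belonged to Ier5, an immediate early response gene (71.9 against 18.6 CPM, log2 1.95, adjusted p = 1.6e-13), and Apaf1, the scaffold of the apoptosome (27.5 against 7.50 CPM, log2 1.87, adjusted p = 4.63e-10). Pmaip1, which encodes the BH3-only protein Noxa, was at 67.0 against 9.76 CPM (log2 2.78, adjusted p = 1.19e-08). Among the 6 lower genes, Ei24 had the smallest p (116 against 188 CPM, log2 -0.69, adjusted p = 2.83e-08), and the others were Rrm2b, a ribonucleotide reductase subunit (-0.77), Fdxr (-0.71), Perp (-0.62), Sesn2 (-0.52) and Xpc, a DNA repair protein (-0.36). Leaving out healthy replicate 2 ended the call of Sesn2 (adjusted p = 0.0643).

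**Figure D3:**
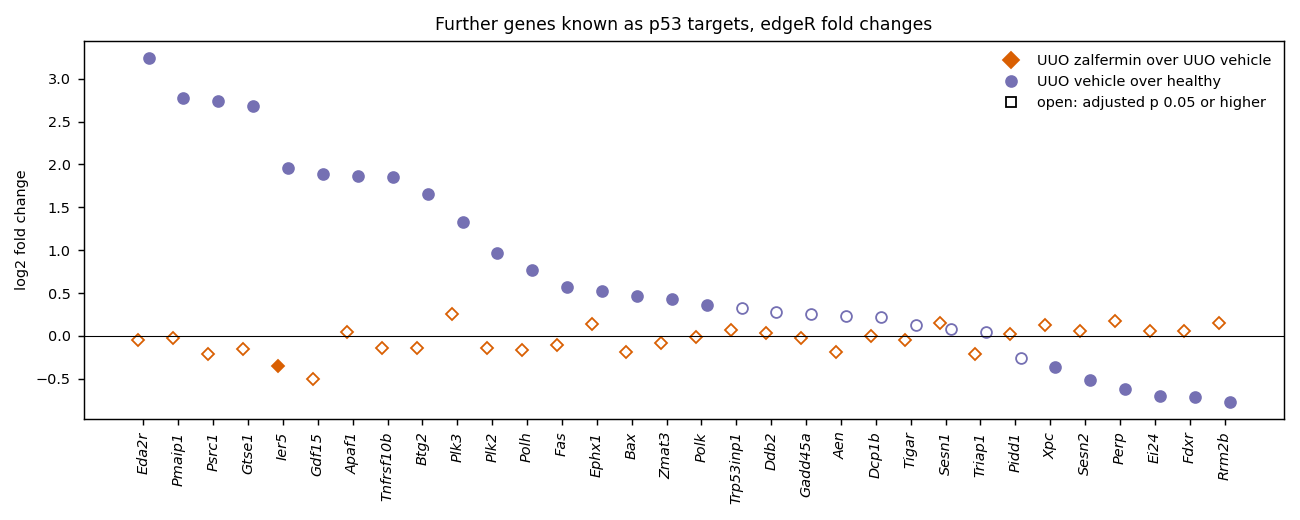
Log2 fold change from the edgeR fit for the 32 tested further p53 target genes, ordered by the difference between vehicle obstructed and healthy kidneys, with diamonds for UUO zalfermin over UUO vehicle, circles for UUO vehicle over healthy, and filled symbols for called genes. Of the circles 17 are filled above 0 and 6 below it, and of the diamonds only that of Ier5, at -0.35, is filled.

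Of 19 regulators of p53, 18 were tested, and 7 were higher, 4 lower and 7 not called in vehicle obstructed over healthy kidneys. This is 38.9% higher and 22.2% lower, near the 36.2% and 28.6% of all tested genes with TMM factors. Chek1, a checkpoint kinase, had the smallest p among them (4.56 against 0.956 CPM, log2 2.26, adjusted p = 7.49e-07), and the ubiquitin ligase gene Rchy1 was lower (41.7 against 61.8 CPM, log2 -0.57, adjusted p = 3.58e-06). Mdm4, the partner of Mdm2, was higher by a log2 of 0.56 (adjusted p = 0.0117), a call that ended when healthy replicate 2 was left out (adjusted p = 0.0669). The lower calls of Cop1 (log2 -0.26) and Usp7 (log2 -0.19) ended with upper-quartile factors (edgeR adjusted p = 0.0537 and 0.0573). They also ended with no filter (0.0779 and 0.107) and when only the groups compared were fitted (0.0822 and 0.0795). Of 8 polycomb genes, whose products are known to repress the Ink4 locus, 3 were higher and 5 not called, with Ezh2 at 20.02 against 8.40 CPM (log2 1.25) and Eed at 34.2 against 24.7 CPM (log2 0.47, adjusted p = 0.00115). The share of polycomb genes called higher, 37.5%, was also near that of all tested genes, while 0% were lower, against 28.6%. The higher call of Rnf2 (log2 0.49, edgeR adjusted p = 0.0203) ended when only the 2 groups compared were fitted (adjusted p = 0.0658). It also ended without healthy replicate 2 (adjusted p = 0.061).

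Obstructed kidneys had higher levels both of some cell cycle inhibitors and of most genes that drive division. Of 4 other inhibitors of cyclin-dependent kinases, 2 were higher: Cdkn2c, which encodes p18 (17.8 against 10.6 CPM, log2 0.75, adjusted p = 0.000321), and Cdkn3, a phosphatase gene that peaks in dividing cells (2.34 against 0.249 CPM, log2 3.20, adjusted p = 1.22e-06). Of 12 kinase and cyclin genes 10 were higher and 1 lower, among them Cdk1 (16.1 against 1.49 CPM, log2 3.43, adjusted p = 3.12e-12) and the mitotic cyclin gene Ccnb2 (12.6 against 1.04 CPM, log2 3.59, adjusted p = 2.18e-10), while Ccnd1 was lower (167 against 216 CPM, log2 -0.37, adjusted p = 0.0177), a call that ended when healthy replicate 2 or 3 was left out (adjusted p = 0.0622 and 0.0588). Of 11 retinoblastoma family and E2F genes, 6 were higher, with E2f8 and E2f7 leading (log2 3.63 and 4.08), and 2 lower, with Rbl2 at 72.9 against 109 CPM (log2 -0.58, adjusted p = 1.07e-05). Higher were 50% of the inhibitors, 83.3% of the kinases and cyclins and 54.5% of the retinoblastoma family and E2F genes, against 36.2% of all tested genes. Lower were 0%, 8.33% and 18.2%, against 28.6%. Summed proliferation markers were at 92.4 to 137 CPM in vehicle obstructed and 6.93 to 17.6 CPM in healthy kidneys. The data therefore hold higher Cdkn1a and higher division genes in the same tissue pieces, and cannot say whether these are the same cells.

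Other BH3-only genes, the relatives of Bbc3, were higher in 4 of 6 tested and lower in 1, Bid (47.3 against 85.6 CPM, log2 -0.85, adjusted p = 2.22e-07). This is 66.7% higher and 16.7% lower, against 36.2% and 28.6% of all tested genes. For the paralogs of the members the shares were 50% and 30%. Of 10 tested paralogs of the members 5 were higher and 3 lower, so that relatives differed in direction: Phlda1 was higher (19.3 against 7.47 CPM, log2 1.37) and Phlda2 lower (log2 -0.98), while Ccng2, the relative of Ccng1, was higher (log2 0.46).

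Genes of the secretory programme described in senescent cells formed a list of 22. Of 21 tested, 17 were higher and 2 lower in vehicle obstructed over healthy kidneys (81% and 9.52%, against 36.2% and 28.6% of all tested genes). Their median log2 fold change was 3.87, or 3.38 with the 2 genes without a read in healthy kidneys set at a floor of 3 counts over that group. The smallest p-values were those of Spp1 (osteopontin; 21425 against 1303 CPM, log2 4.04) and Ccl2, a monocyte chemokine (24.7 against 0.575 CPM, log2 5.44), and Igfbp5 was lower (229 against 614 CPM, log2 -1.42). Many of these genes are also made by injured tubules, fibroblasts and immune cells. Summed macrophage markers were at 984 to 1253 CPM in vehicle obstructed and 146 to 180.3 CPM in healthy kidneys, and the part of these cells was not tested. Of 12 other genes used as senescence markers 6 were higher and 2 lower (50% and 16.7%). Among the higher ones were Cd9 (219 against 90.8 CPM, log2 1.27) and Tnfrsf12a (119 against 16.9 CPM, log2 2.82). The 6 also held Lmnb1, whose loss is a known mark of senescent cells (25.5 against 7.51 CPM, log2 1.76, edgeR adjusted p = 2.55e-10). Mki67, a proliferation marker, was another of them (log2 3.42, edgeR adjusted p = 7.08e-11). Higher Lmnb1 and Mki67 are not signs of senescence, so the 6 calls do not all point the same way.

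Zalfermin against vehicle gave 2 calls over all 10 lists, where 1.81% of all tested genes were called. Without vehicle replicate 6, the library that stood apart, the lists held 5 calls. These were 3 in the secretory list (1 higher and 2 lower), 1 lower among the kinases and cyclins, and Ier5. Calls over all genes went from 290 to 517 in that setting. The p53 target Ier5 was at 56.5 ± 5.02 CPM with zalfermin and 71.9 ± 6.93 CPM with vehicle (SD, n = 8 and 7), a log2 fold change of -0.35 (edgeR adjusted p = 0.0112). All 8 zalfermin kidneys lay below the vehicle median, and the groups did not overlap. The cytokine gene Il1b, in the secretory list, was at 4.88 ± 1.43 CPM with zalfermin and 9.87 ± 1.63 CPM with vehicle (log2 -1.02, adjusted p = 0.00143). For Il1b the groups overlapped, though all 8 zalfermin kidneys lay below the vehicle median. Both calls held in every alternative and with any single library left out. Summed macrophage markers were at 808 to 1183 CPM with zalfermin and 984 to 1253 CPM with vehicle, and their part in the lower Il1b was not tested. Summed fibroblast and pericyte markers did not overlap, at 1227 to 2003 CPM with zalfermin and 2045 to 3748 CPM with vehicle. Their part in the values of these lists was not tested either. In the secretory list 9 of 21 genes had an unadjusted p under 0.05 by edgeR, against 15.5% of all tested genes. DESeq2 called 2 of the 21 (1 higher and 1 lower) and voom 5 (3 higher and 2 lower). Directions in this list were mixed, with log2 fold changes from -1.02 to 0.74 and a median of -0.07.

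The genes with the next smallest p in these lists were Gdf15, a stress cytokine and p53 target (33.4 against 47.1 CPM, log2 -0.50, adjusted p = 0.292), and Igfbp4 (606 against 483 CPM, log2 0.33, adjusted p = 0.0506). In the other 8 lists edgeR and DESeq2 called 0 genes, with 0 to 3 genes per list at an unadjusted p under 0.05, while voom called 1 among the regulators and 1 among the kinases and cyclins. Glb1l (110 against 95.4 CPM, log2 0.21, adjusted p = 0.119) and Phlda1 (14.02 against 19.3 CPM, log2 -0.46, adjusted p = 0.132) had the smallest p among the paralogs, Ccnd2 among the kinases and cyclins (log2 -0.24, adjusted p = 0.226) and Lmnb1 among the other senescence markers (log2 -0.27, adjusted p = 0.199).

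The other pairs of smallest p per list were also uncalled between zalfermin and vehicle. Among the regulators, Rchy1 was at 46.4 against 41.7 CPM (log2 0.15) and Usp10, a deubiquitinase of p53, at 91.8 against 83.8 CPM (log2 0.13). Among the inhibitors, Cdkn1c (p57) was at 23.3 against 21.5 CPM and Cdkn2d at 10.6 against 11.5 CPM. The cyclin gene Ccne2 was at 3.85 against 5.21 CPM, Rb1 at 59.3 against 46.8 CPM and E2f2 at 5.18 against 6.40 CPM. The polycomb genes Cbx8 and Cbx7 had log2 differences of -0.27 and 0.21, the BH3-only genes Bcl2l11 and Bik 0.17 and -0.15, and Cd9 0.12. Their adjusted p-values by edgeR ran from 0.298 for Rchy1 to 0.666 for Cdkn2d.

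In zalfermin-treated obstructed over healthy kidneys, which again shares the healthy libraries, 17 of 32 further p53 targets were higher and 6 lower, led by Ier5 (log2 1.60) and Apaf1 (1.91), with Ei24 lower (-0.63). Of the 18 regulators 8 were higher and 2 lower. Shares higher and lower were 53.1% and 18.8% of these targets, 44.4% and 11.1% of the regulators, and 37.3% and 27% of all tested genes. Chek1 (2.28) and Ep300, an acetyltransferase that acts on p53 (115.6 against 68.4 CPM, log2 0.76, adjusted p = 4.47e-06), had the smallest p, and Rchy1 was lower (-0.41). The inhibitors Cdkn3 (3.11) and Cdkn2c (0.65) were higher, as were Cdk1 (3.26) and the cyclin gene Ccna2 (3.07), while Ccnd3 was lower (77.5 against 96.7 CPM, log2 -0.32, adjusted p = 0.00911). E2f8 (3.42) and E2f7 (4.00) were higher and Rbl2 lower (-0.46). Of the polycomb genes Ezh2 (1.28) and Eed (0.49) were higher and Ring1 lower (28.0 against 34.2 CPM, log2 -0.29, adjusted p = 0.0434). The Ring1 call ended with upper-quartile factors (edgeR adjusted p = 0.0736) and with no filter (0.0799). It also ended when any single healthy replicate was left out (edgeR adjusted p up to 0.121), and without some of the zalfermin replicates. The BH3-only genes Pmaip1 (2.75) and Bmf (52.5 against 18.7 CPM, log2 1.49, adjusted p = 4.38e-07) were higher and Bid lower (-0.76), and the galactosidase genes Glb1l (-0.79) and Glb1 (-0.87) were lower. In the secretory list Spp1 (4.33) and Ccl2 (5.74) were higher and Igfbp5 lower (-1.53), and of the other markers Cd9 (1.39) and Tnfrsf12a (2.7) were higher.

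Obstructed kidneys varied in Cdkn1a within each treatment, and this variation was followed over the 15 obstructed libraries with each treatment's mean removed from the log2 CPM. Trp53 went with it (Pearson r = 0.724, permutation p = 0.00385, adjusted 0.0425 over 15 relations; Spearman rho = 0.814, permutation p = 0.00076, adjusted 0.0114). Phlda3 passed the correction by Pearson (r = 0.676, permutation p = 0.00827, adjusted 0.0425) but not by Spearman (rho = 0.621, permutation p = 0.0195, adjusted 0.0586), and Glb1l2 went the other way (r = -0.691, permutation p = 0.00849, adjusted 0.0425; rho = -0.721, permutation p = 0.00483, adjusted 0.0362). Without the 2 libraries farthest from the median of Cdkn1a, r was 0.689, 0.616 and -0.655 for these 3 genes. Within zalfermin kidneys r was 0.782, 0.400 and -0.781, and within vehicle kidneys 0.653, 0.909 and -0.585. Bbc3 (r = 0.486), Cdkn2b (0.505), Cdkn1b (-0.354), Ccng1 (-0.220) and Mdm2 (-0.0987) did not pass the correction, with adjusted permutation p-values of 0.189 or more.

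Of 7 measures of the libraries, none passed the correction by Pearson. The summed injured tubule markers came closest, with r = 0.649 (permutation p = 0.0136, adjusted 0.0512) and rho = 0.654 (adjusted permutation p = 0.0534), and r = 0.914 without vehicle replicate 6. It was 0.496 without the 2 libraries farthest in Cdkn1a. Within zalfermin kidneys r was 0.923 and within vehicle kidneys 0.372. The mitochondrial share had r = -0.386 (adjusted permutation p = 0.313) and rho = -0.629 (adjusted permutation p = 0.0462). For the summed proximal tubule markers r was -0.476, for macrophage markers 0.270, for fibroblast and pericyte markers 0.200, for proliferation markers -0.0162 and for the total count 0.217, with adjusted permutation p-values of 0.189 or more. The proximal tubule sum is carried largely by the gene Kap, so its r describes that gene more than the other markers. All these values come from the same libraries, and the part of tubule injury in the relation between Cdkn1a, Trp53, Phlda3 and Glb1l2 was not tested.

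**Figure D4:**
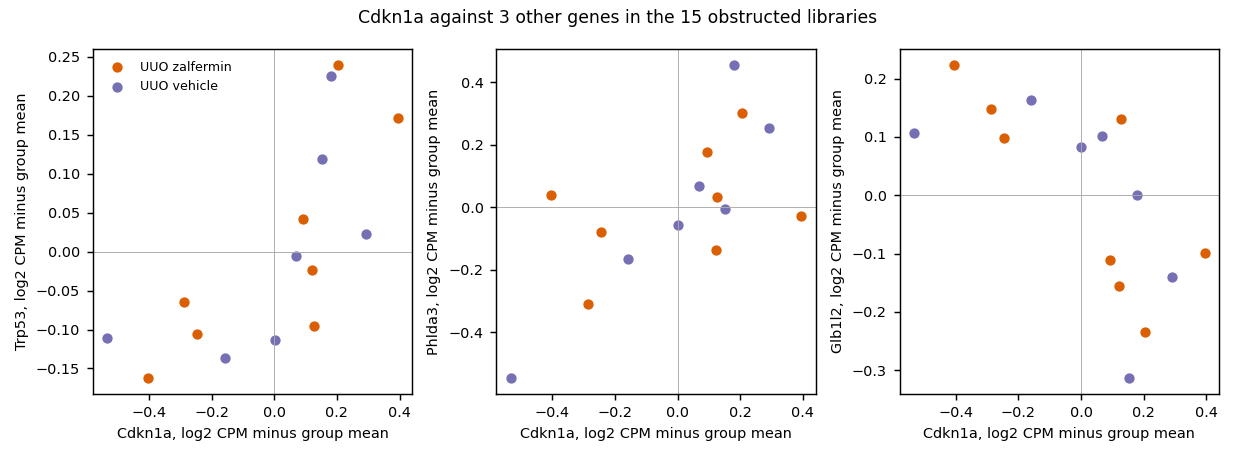
Trp53, Phlda3 and Glb1l2 (vertical axes) against Cdkn1a (horizontal axes) over the 15 obstructed libraries, as log2 CPM with the treatment mean removed, 1 point per library and the treatments in different colours. Trp53 (r = 0.724) and Phlda3 (r = 0.676) are higher where Cdkn1a is higher, and Glb1l2 (r = -0.691) is lower.

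Among 11632 genes that averaged 5 CPM or more and had an established symbol, the 5 most like Cdkn1a over the same 15 libraries were Prr13 (r = 0.94), Ddx27 (0.91), Tpd52l2 (0.90), Rbm38 (0.89) and Mvp (0.89). These were picked for their likeness from many genes, so the coefficients are a description. Rbm38 encodes an RNA-binding protein known as a p53 target, and Mvp the major vault protein. Prr13, Ddx27, Tpd52l2 and Mvp averaged less in healthy kidneys than in either obstructed group. Mvp averaged 232.8 CPM in zalfermin, 225.1 CPM in vehicle and 55.4 CPM in healthy kidneys. In the same order, Prr13 averaged 104.8, 101.5 and 65.6 CPM, Ddx27 50.3, 51.0 and 37.7 CPM, and Tpd52l2 97.2, 95.4 and 57.4 CPM. Rbm38 did not share this pattern, at 10.5, 13.2 and 10.8 CPM.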

How the data were processed

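RNA of 19 mouse kidney libraries was extracted with a NucleoSpin kit, made into NEBNext Ultra II Directional libraries and sequenced on a NextSeq, per the labels' protocols. Per the submitters' processing notes, STAR 2.7.0f was the aligner and GRCm38 the genome build. The authors deposited raw read counts per gene, and the sources used here name neither the counting program nor its strand setting. All 55536 identifiers were found in GENCODE M21, which gave coordinates and exon lengths.

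Genes were kept with filterByExpr (minimum count 10, minimum total 15): 16026 were tested and 39510 were not, holding 0.115% of counts. A single edgeR 4.0.16 quasi-likelihood model with TMM factors was fitted to the 19 libraries in R 4.3.3, with Benjamini-Hochberg adjustment over all tested genes. TMM factors were 0.751 to 0.843 in healthy and above 1 in obstructed libraries. For Cdkn2a the mean CPM was tested by exact permutation (two-sided). Correlations used log2 CPM with a prior count of 2 and 100000 permutations within treatments, two-sided. The edgeR scripts were first tested on simulated data.

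The members and gene lists were chosen with earlier results of these data known. Text names all 10 members, per gene list and comparison the 2 genes with the smallest p and the called gene of smallest p against the majority, and the 5 genes most like Cdkn1a. Further genes of the p53, paralog, polycomb, E2F and senescence lists were named after their values were seen. Alternatives were DESeq2 1.42.0, scaling by RLE or upper quartile, limma 3.58.1 voom with quality weights, no filter, a minimum of 1 CPM in 4 libraries, robust dispersions, only the groups compared, and each library left out. Intervals on read ratios are exact 95% intervals.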

Additional observations from a re-analysis of the deposited data

Results flagged for a closer look

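In Cdkn2b, the vehicle kidney replicate 2 stood apart from its group at 9.07 CPM, where the other 6 vehicle kidneys had 4.69 to 6.49 CPM. The same library also held 15 of the 42 vehicle reads of the neighbouring Cdkn2a. In Mdm2, the zalfermin kidney replicate 1 stood apart at 87.9 CPM, where the other 7 zalfermin kidneys had 64.5 to 73.9 CPM. Each gap was larger than Dixon's 95% critical value for its group size (ratio 0.589 against 0.568, and 0.598 against 0.526). Of 30 groups of values examined 2 were marked in this way, and chance marks about 1 in 20. Their causes were not tested.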

How the results depend on the processing

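The 16 calls of members against healthy kidneys, and the absence of calls under zalfermin against vehicle, held in all alternatives and with each library left out. Cdkn1b was called in addition with voom (log2 0.25 in vehicle and 0.25 in zalfermin kidneys over healthy) and, for zalfermin, when only the groups compared were fitted (0.16, adjusted p = 0.0482). Over all genes, zalfermin against vehicle had 290 calls, but 602 with DESeq2, 1148 with voom, and 153 to 517 with a library left out (517 without vehicle replicate 6, 179 without vehicle 2, 157 without vehicle 7, and 153, 162 and 155 without zalfermin 2, 4 and 5). The causes were not tested. Of these calls 139 were higher and 151 lower with TMM, against 110 and 166 with RLE and 105 and 191 with upper-quartile scaling.

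Signs turned only in uncalled differences between zalfermin and vehicle. Cdkn1b was at -0.0014 (log2) with voom, Bbc3 ran from -0.11 to 0.050 and Mdm2 from -0.017 to 0.053 with a library left out; for Mdm2 that was zalfermin replicate 1. For Cdkn2a the vehicle minus healthy difference was 0.353 CPM, and 0.390 CPM without TMM factors (exact permutation p = 0.0424). With a library left out it was 0.256 to 0.408 CPM (exact permutation p = 0.0333 without vehicle 4, 0.0429 without vehicle 5, and up to 0.108). The zalfermin minus healthy difference of 0.211 CPM was then 0.167 to 0.237 CPM, with p up to 0.0727. No paired analysis was possible because the labels give the groups no shared numbers. Cdkn2a had too few reads for the fit, and the effect of depth on the other members was not tested.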
